A study of Homo sapiens with 6 samples.

Results

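The Krueppel-like factors are transcription factors that share zinc fingers at the C-terminal end, with which they bind GC-rich and CACCC elements in promoters. The 10 genes described here are KLF2, KLF3, KLF4, KLF5, KLF6, KLF7, KLF9, KLF10, KLF12 and KLF13. They were chosen by their KO against WT differences on these same arrays, so those differences are descriptions and no test of a member is given. They are 10 of 19775 genes that had a probe set of their own, and the array annotation gave one of their symbols alone to 38 of 54613 probe sets. Of the 38, 28 were brighter than the array's median probe set on at least 1 of the 6 arrays and so entered the fit of 32262 probe sets. The other 10 stayed below that median on all 6 arrays, and all 10 genes kept at least 1 probe set.

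The arrays measured RNA of Panc1 and BxPC3, human cell lines established from pancreatic ductal adenocarcinomas. Panc1 had 1 array of control cells with wild-type KDM6A (WT) and 1 array of KDM6A knockout cells (KO), and BxPC3 had 2 WT and 2 KO arrays. KDM6A encodes a demethylase of lysine 27 on histone H3, and the series title ties its loss to tumour progression and to the cell cycle inhibitor gene CDKN1A. Per the labels' protocols, 1 guide against KDM6A was delivered with Cas9 by the lentiCRISPR v2 vector, puromycin selection followed, and limiting dilution gave the knockout clones. Panc1 was grown in DMEM and BxPC3 in RPMI 1640. It is not stated whether WT cells received a vector, how many clones the KO arrays stand for, or whether the paired BxPC3 arrays were separate cultures. Errors therefore cover only spread between arrays, which may be technical. They are limma standard errors, in which each probe set's own spread is pooled with that of all tested probe sets. In bulk RNA, fewer expressing cells and less RNA per cell cannot be told apart.

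Levels are RMA values (log2), and differences are KO minus WT within a line. Array medians lay between 4.75 and 5.06, and values below them are called dim here. In this low range RMA compresses differences. KDM6A was lower on the KO arrays, from 6.73 to 4.06 in Panc1 and by 0.79 ± 0.12 (SE, n = 2 per group) in BxPC3 on its brightest probe set. All 6 epithelial and ductal markers examined (KRT7, KRT8, KRT18, KRT19, EPCAM and CDH1) were above the median on all 6 arrays, at 5.78 to 13.5 in Panc1 and 11.2 to 13.3 in BxPC3. Of 20 markers of fibroblasts, immune cells, endothelium, nerve and red cells, 6 were dim on every array and 7 were above the median on every array. The 6 were PTPRC and LYZ of leukocytes, COL1A2, COL3A1 and LUM of fibroblasts and KDR of endothelium. The 7 were COL1A1 and PDGFRB of fibroblasts, CD3E of immune cells, PECAM1 of endothelium, SNAP25 and MBP of nerve and HBB of red cells. The epithelial markers had a median Panc1 difference of -0.25 and went both ways, with CDH1 at -2.08, EPCAM at -0.93, KRT7 at -0.44, KRT19 at -0.06, KRT8 at 0.03 and KRT18 at 0.21. In BxPC3 none of the 6 epithelial markers passed limma's threshold, where 2.68% of all tested probe sets did. At an unadjusted p under 0.05 there was 1, where 17% of all were.

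By the cofactors they are known to recruit, the members fall into groups. KLF2, KLF4, KLF5, KLF6 and KLF7 mostly activate transcription through histone acetyltransferases. KLF3 and KLF12 are repressors that bind the corepressor CtBP, and KLF9, KLF10 and KLF13 are linked to the Sin3 and histone deacetylase complex. In epithelia KLF4 is best known in differentiating cells that leave the cycle and KLF5 in dividing progenitor cells, where the pair often act in opposite ways on the same sites.

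The promoter windows of 4 members are shown because these genes held the members' largest differences in Panc1, KLF4, KLF9 and KLF12 being lower and KLF5 higher on the KO array. Each is the stretch of 250 bases before an annotated start in RefSeq (GRCh38.p14), 5′ to 3′ on the gene's strand. For genes with several starts it is the one with the most CpG, and the arrays do not show which start was used. Capitals mark the letters CACCC and the GC box GGGCGG, both searched on both strands.
KLF4, chr9:107489770-107490019, minus strand: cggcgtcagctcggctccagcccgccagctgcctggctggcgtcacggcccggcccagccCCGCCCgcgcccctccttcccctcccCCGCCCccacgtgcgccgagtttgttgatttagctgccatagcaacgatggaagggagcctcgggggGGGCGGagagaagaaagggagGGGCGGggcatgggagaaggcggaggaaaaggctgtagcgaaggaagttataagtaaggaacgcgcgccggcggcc
KLF12, chr13:74134405-74134654, minus strand: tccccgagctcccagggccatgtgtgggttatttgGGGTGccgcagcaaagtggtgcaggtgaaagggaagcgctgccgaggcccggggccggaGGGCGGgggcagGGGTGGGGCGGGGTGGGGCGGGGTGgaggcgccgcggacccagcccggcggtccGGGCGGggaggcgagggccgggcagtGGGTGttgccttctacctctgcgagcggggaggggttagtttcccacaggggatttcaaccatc
KLF9, chr9:70414658-70414907, minus strand: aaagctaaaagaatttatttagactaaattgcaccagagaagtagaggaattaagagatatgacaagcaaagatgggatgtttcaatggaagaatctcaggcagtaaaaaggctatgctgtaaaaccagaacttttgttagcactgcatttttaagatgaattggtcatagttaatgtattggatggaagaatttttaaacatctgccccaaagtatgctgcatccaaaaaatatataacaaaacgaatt
KLF5, chr13:73058755-73059004, plus strand: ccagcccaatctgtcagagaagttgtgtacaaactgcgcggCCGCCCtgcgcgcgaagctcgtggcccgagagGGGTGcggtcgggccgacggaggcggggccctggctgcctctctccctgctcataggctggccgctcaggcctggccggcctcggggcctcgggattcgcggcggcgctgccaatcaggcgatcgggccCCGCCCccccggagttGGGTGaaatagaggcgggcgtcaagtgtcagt

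The window of KLF4 held 4 GC boxes and no CACCC. The KLF12 window held 5 CACCC matches and 4 GC boxes, 2 of which overlap a CACCC match in the repeated stretch. The KLF5 window held 2 of each. KLF9 stood apart, with neither and with 1 CpG, against 25, 20 and 27 CpG in the windows of KLF4, KLF12 and KLF5. Over the 8 members with a window in the table, 7 held a GC box, as did 44.9% of such windows of 27305 genes. CACCC was in 3 of the 8, as in 54.3% of genes. Neither CACCC nor the GC box was common to the windows of KLF4, KLF9 and KLF12, since that of KLF9 held neither. A match is only a run of letters, and binding was not measured.

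The members' larger differences were in Panc1. On its KO array 5 of the 28 tested probe sets were at least 2-fold lower and 1 was at least 2-fold higher, where 2.97% and 0.524% of all tested probe sets were. These contrasts were in view when the genes were chosen, so nothing is read from the counts. Over the 28 the differences ran from -3.73 to 1.75 with a median of -0.46, against 0.00 over all tested probe sets. Of the 28, 21 were below 0, where 47.7% of all were. Just outside the 2-fold limit lay KLF7 240432_x_at at -0.99, and just inside it KLF7 1555420_a_at at -1.07. Among all 38 probe sets, the 13 that were dim on both Panc1 arrays had a median of -0.13 and the 25 that were not had one of -0.52.

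In BxPC3 the differences were small, between -0.42 and 0.33 over the tested probe sets with a median of 0.00, against 0.01 over all. Of the 28, 14 were below 0, where 48.4% of all were. In the limma fit over 32262 probe sets none of the 28 was called at an adjusted p under 0.05, where 2.68% of all probe sets were. At an unadjusted p under 0.05 there were 6, where 17% of all were. WT and KO arrays did not overlap for 6 probe sets that were lower and 6 that were higher, where 24.3% and 23.4% of all tested probe sets did so in these directions. The call rule and the share of all probe sets are given as background, and the count is a description.

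**Figure D1:**
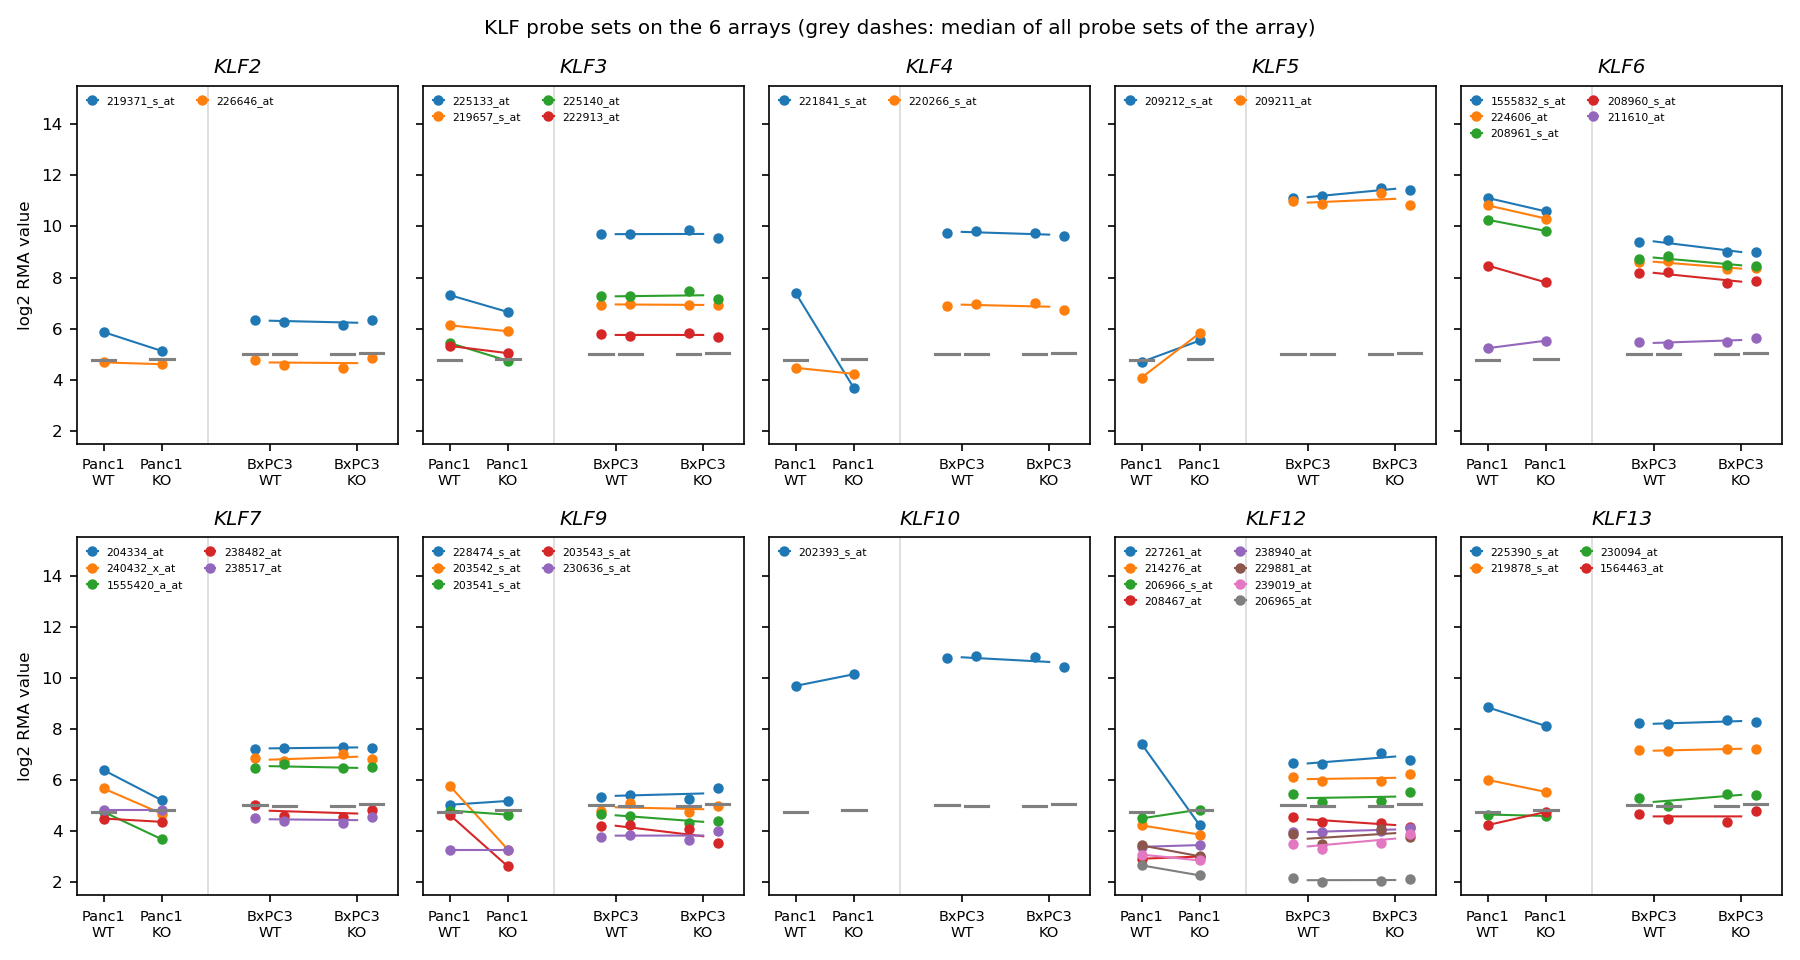
Log2 RMA values of the 38 probe sets of the 10 KLF genes on each array, 1 panel per gene and 1 colour per probe set. Points are arrays, lines join the Panc1 arrays or the BxPC3 group means, and grey dashes are array medians. The steep Panc1 lines of KLF4, KLF9 and KLF12 each belong to probe sets that end below the dash, while the BxPC3 lines are nearly flat.

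KLF4, a regulator of epithelial differentiation, had the members' largest difference. Its probe set 221841_s_at read 7.40 on the Panc1 WT and 3.67 on the KO array, a difference of -3.73 or 13.3-fold, rank 8 from the lowest of all tested probe sets. The KO value is dim. On this KO array 4 of the 6 epithelial markers were lower, CDH1 (E-cadherin) most at -2.08, and 2 keratins were higher by 0.03 and 0.21. Their part in the KLF4 values was not tested. The other probe set, 220266_s_at, read 4.47 and 4.23 in Panc1, a difference of -0.24. Both of its values were dim, and the probe sets disagree in size, not in sign.

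Both KLF4 probe sets were well above the median in BxPC3, and their differences there were small. Probe set 221841_s_at read 9.76 and 9.82 on the WT and 9.75 and 9.61 on the KO arrays, a difference of -0.11 ± 0.09 (SE, n = 2 per group). The other read 6.90 and 6.97 against 6.99 and 6.72, a difference of -0.08 ± 0.11. The KO values of the first lay just below the WT values and those of the second spanned them.

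KLF5, the factor of proliferating epithelium, was higher in Panc1 on both of its probe sets. Probe set 209211_at read 4.08 on the WT and 5.83 on the KO array, a difference of 1.75 or 3.35-fold, rank 34 from the highest of all tested probe sets. Probe set 209212_s_at read 4.69 and 5.54, a difference of 0.85. Both started dim and ended above the median, opposite to KLF4.

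In BxPC3 KLF5 was far above the array medians. Probe set 209212_s_at read 11.12 and 11.18 on the WT and 11.52 and 11.43 on the KO arrays, a difference of 0.33 ± 0.08, with the groups apart. On 209211_at the values were 10.98 and 10.89 against 11.33 and 10.83, a difference of 0.15 ± 0.17. Here KO array 1 was high and KO array 2 lay below both WT arrays, so the groups overlap. Without KO array 1 the difference was -0.10.

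KLF6, a ubiquitous factor often described as a tumour suppressor, was lower in both lines on 4 of its 5 probe sets. These are also its 4 brightest. In Panc1 1555832_s_at read 11.12 on the WT and 10.59 on the KO array, and the 4 differences lay between -0.44 and -0.66. In BxPC3 the same probe set read 9.38 and 9.45 on the WT arrays and 9.00 on both KO arrays, a difference of -0.42 ± 0.07. The others were at -0.27 ± 0.07 (224606_at), -0.30 ± 0.08 (208961_s_at) and -0.35 ± 0.08 (208960_s_at). On all 4 each KO array was below each WT array, as on 24.3% of all tested probe sets. The fifth, 211610_at, stood at 5.23 and 5.53 in Panc1 and between 5.41 and 5.63 in BxPC3, close to the medians, and differed by 0.29 and 0.11 ± 0.09. Probe sets of 1 gene share their RNA and are not replicates.

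KLF7, a factor known from neurons and fat cells, was lower in Panc1 on 3 probe sets alike. Probe set 204334_at read 6.39 and 5.21, a difference of -1.18. On 240432_x_at the values were 5.67 and 4.68 (-0.99) and on 1555420_a_at 4.76 and 3.68 (-1.07). The KO values of these last 2 were dim, and 4.76 was barely above the WT array's median of 4.75. Of the remaining probe sets, 238482_at was dim, at 4.50 and 4.36, and 238517_at read 4.82 on both arrays, close to the medians. In BxPC3 none of the 5 differed by more than 0.12, and 204334_at read 7.24 and 7.25 on the WT and 7.31 and 7.25 on the KO arrays (0.04 ± 0.07).

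KLF2, best known from endothelium and quiescent T cells, was measured by 1 probe set above the medians. Probe set 219371_s_at read 5.86 on the Panc1 WT and 5.12 on the KO array, a difference of -0.74. In BxPC3 it read 6.35 and 6.27 against 6.13 and 6.33, a difference of -0.08 ± 0.10 with overlapping groups. Its other probe set, 226646_at, was dim on all 6 arrays and differed by -0.07 and -0.03. The 5 endothelial markers ranged from 2.94 to 5.72 in Panc1, with all 4 that were tested higher on the KO array by 0.10 to 0.31, and their BxPC3 differences went both ways, with a median of 0.06 over the 4. PECAM1 was at -0.02, TEK at 0.14 and VWF at 0.21, and CDH5 was at -2.19 (limma adjusted p = 0.00849). CDH5 was above the median on the WT arrays alone, at 6.74 and 6.91, and dim on the KO arrays, at 4.86 and 4.41. Their part in the KLF2 values was not tested.

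Of the CtBP-binding repressors, KLF12 also had 1 probe set with a large difference in Panc1. This factor was named for its repression of the gene of AP-2 alpha. Probe set 227261_at read 7.42 on the Panc1 WT and 4.23 on the KO array, a difference of -3.19 or 9.16-fold, rank 18 from the lowest. The other 7 probe sets ranged from 2.27 to 4.85 in Panc1, with differences from -0.43 (229881_at) to 0.35 (206966_s_at). Of these 7, 6 were dim on both Panc1 arrays, and 206966_s_at passed the median only on the KO array, at 4.85 against 4.83. In Panc1, then, the large difference rests on the 1 probe set that was above the median in WT cells.

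In BxPC3, 3 probe sets of KLF12 were above the medians on all 4 arrays. Probe set 227261_at read 6.67 and 6.64 on the WT and 7.07 and 6.77 on the KO arrays, a difference of 0.27 ± 0.12 in the direction opposite to Panc1. On 214276_at the values were 6.10 and 5.97 against 5.95 and 6.22 (0.05 ± 0.12), and on 206966_s_at 5.45 and 5.14 against 5.19 and 5.51 (0.06 ± 0.16). Only on the first were the groups apart. The 5 dim probe sets lay between 2.00 and 4.57 and differed by -0.23 to 0.31.

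KLF3, a repressor known from red cell and fat development, was lower in Panc1 on all 4 probe sets by less than 2-fold. Probe set 225133_at read 7.31 and 6.65 (-0.66), 225140_at 5.44 and 4.74 (-0.70), 222913_at 5.32 and 5.04 (-0.28) and 219657_s_at 6.13 and 5.90 (-0.23). In BxPC3 all 4 were within 0.05 of 0. The brightest there read 9.69 and 9.71 on the WT and 9.86 and 9.56 on the KO arrays, a difference of 0.01 ± 0.12, so that the KO arrays lay on either side of the WT arrays.

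Among the Sin3-linked members KLF9, a target of glucocorticoid and thyroid hormone receptors, differed most. Probe set 203542_s_at read 5.79 on the Panc1 WT and 3.28 on the KO array, a difference of -2.50 or 5.67-fold, rank 52 from the lowest. A further probe set, 203543_s_at, read 4.65 and 2.62 (-2.03) but was dim on every array and did not enter the fit. The other 3 differed by -0.16 (203541_s_at), 0.15 (228474_s_at) and 0.00 (230636_s_at). The last was dim on both arrays, 203541_s_at was within 0.2 of the medians, and 228474_s_at, at 5.03 and 5.18, was above the median on both. The probe sets of KLF9 thus disagree in size and in sign.

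In BxPC3 KLF9 was above the medians on all 4 arrays by 1 probe set, 228474_s_at, which read 5.33 and 5.43 on the WT and 5.26 and 5.69 on the KO arrays (0.09 ± 0.15). Probe set 203542_s_at read 4.78 and 5.09 against 4.74 and 4.98, a difference of -0.08 ± 0.14. On 203541_s_at the values were 4.66 and 4.59 against 4.34 and 4.39, a difference of -0.26 ± 0.08 with the groups apart, and on the untested 203543_s_at the difference was -0.41.

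KLF13, which activates the chemokine gene CCL5 in T cells, was lower in Panc1 on its 2 brighter probe sets. Probe set 225390_s_at read 8.85 and 8.12 (-0.73) and 219878_s_at 6.01 and 5.54 (-0.47). The dim 230094_at and 1564463_at differed by -0.06 and 0.52. In BxPC3 225390_s_at read 8.23 and 8.18 on the WT and 8.36 and 8.26 on the KO arrays, a difference of 0.11 ± 0.08, and 219878_s_at and 230094_at differed by 0.08 ± 0.07 and 0.28 ± 0.12. On these 3 both KO arrays were above both WT arrays, as on 23.4% of all tested probe sets.

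KLF10, a gene induced early by TGF-beta, had 1 probe set, which was above the median on every array. It read 9.69 on the Panc1 WT and 10.15 on the KO array, a difference of 0.46. In BxPC3 it read 10.76 and 10.86 against 10.82 and 10.44, a difference of -0.18 ± 0.14. KO array 2 was the low one, and KO array 1 lay between the WT arrays.

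**Figure D2:**
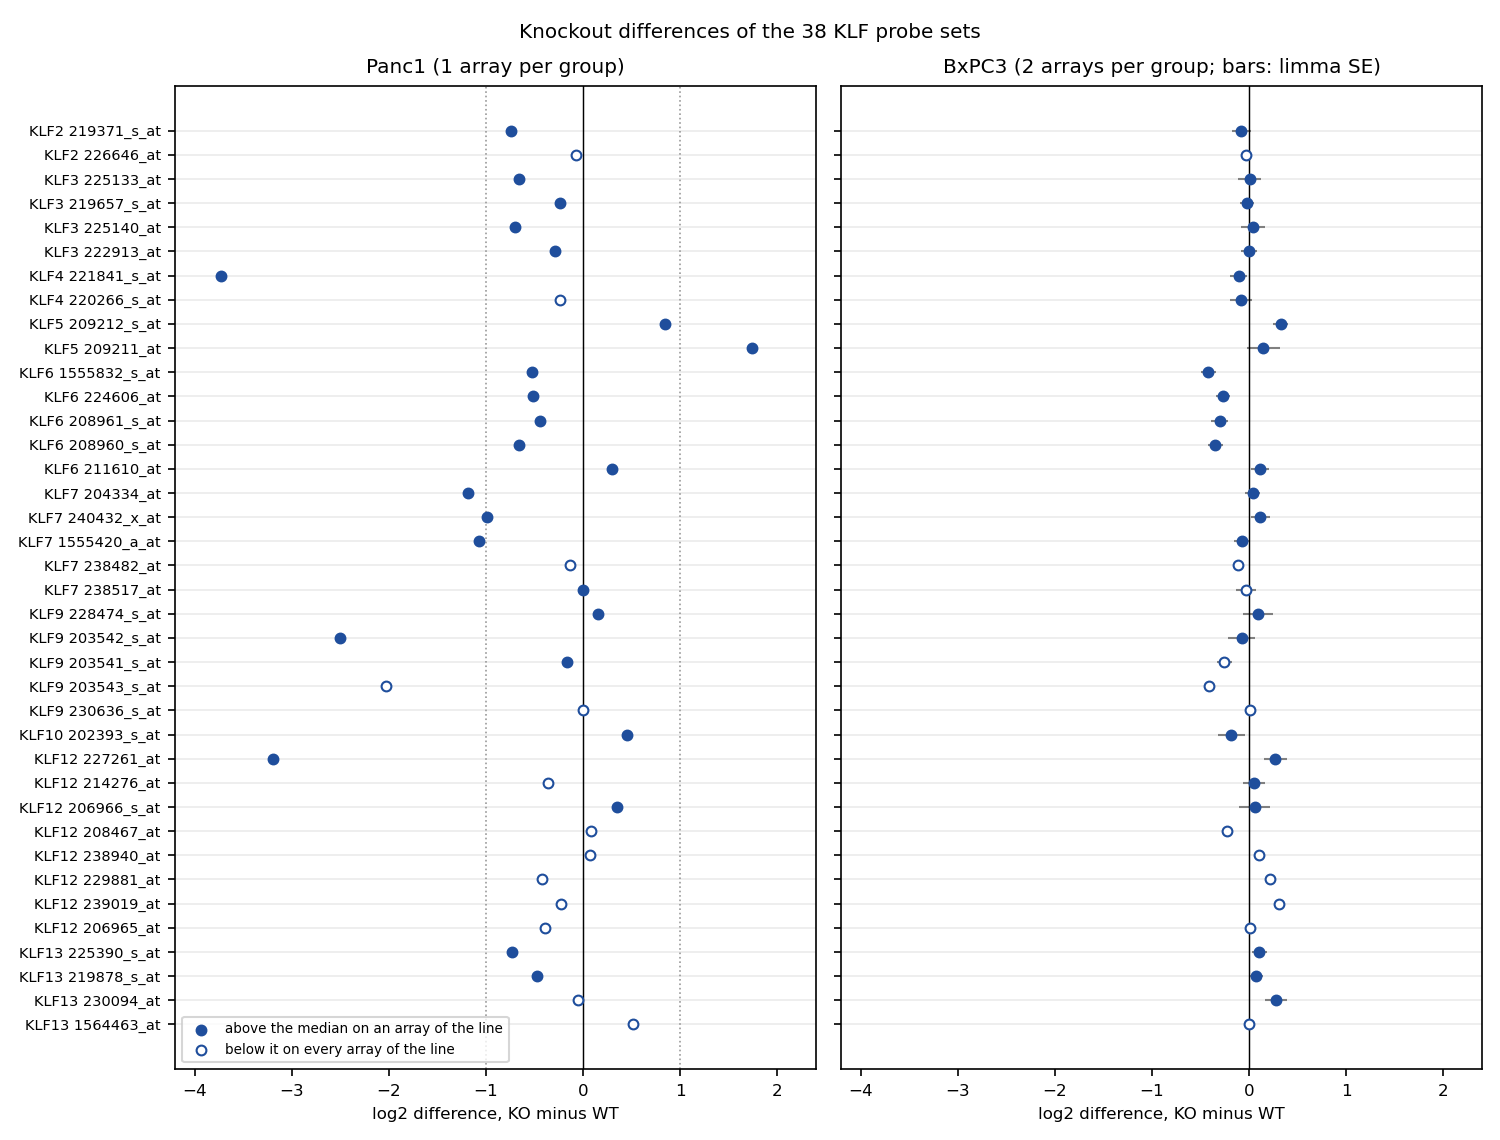
KO minus WT log2 differences of the 38 probe sets in Panc1 (left) and BxPC3 (right, bars are limma standard errors where the probe set was tested). Filled points were above the array median on at least 1 array of the line, open points on none, and dotted lines mark 2-fold. Panc1 spans -3.73 to 1.75, and BxPC3 stays between -0.42 and 0.33.

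KLF5 and KLF12 are next to each other among protein-coding genes on chromosome 13 in the RefSeq gene table (GRCh38.p14), with PIBF1 beside KLF5 and TBC1D4 beside KLF12. PIBF1, a gene of centrosomes and cilia, read 7.68 and 7.26 in Panc1 (-0.42). TBC1D4, a Rab GTPase-activating protein of glucose transport, read 7.33 and 4.98 (-2.35), and its other probe set gave -2.33. So KLF5 was the only one of the 4 that was higher on the KO array.

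In BxPC3 TBC1D4 fell, from 7.42 and 7.38 on the WT to 6.85 and 6.64 on the KO arrays, a difference of -0.65 ± 0.10 (limma adjusted p = 0.0392 over all probe sets). Its other probe set gave -0.47 ± 0.09 and did not pass (adjusted p = 0.0748). PIBF1 differed by 0.03 and its groups overlapped. Over all members, 18 other genes were the nearest to one among those with a probe set of their own, and 11 were tested. TBC1D4 was the 1 that was called in BxPC3, where 2.06% of all probe sets were called lower. It was also the 1 that differed 2-fold in Panc1, where 2.97% of all tested probe sets were lower and 0.524% higher. Fits with 1 BxPC3 array left out have 1 array in a group, so they cannot show whether the call of TBC1D4 holds.

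**Figure D3:**
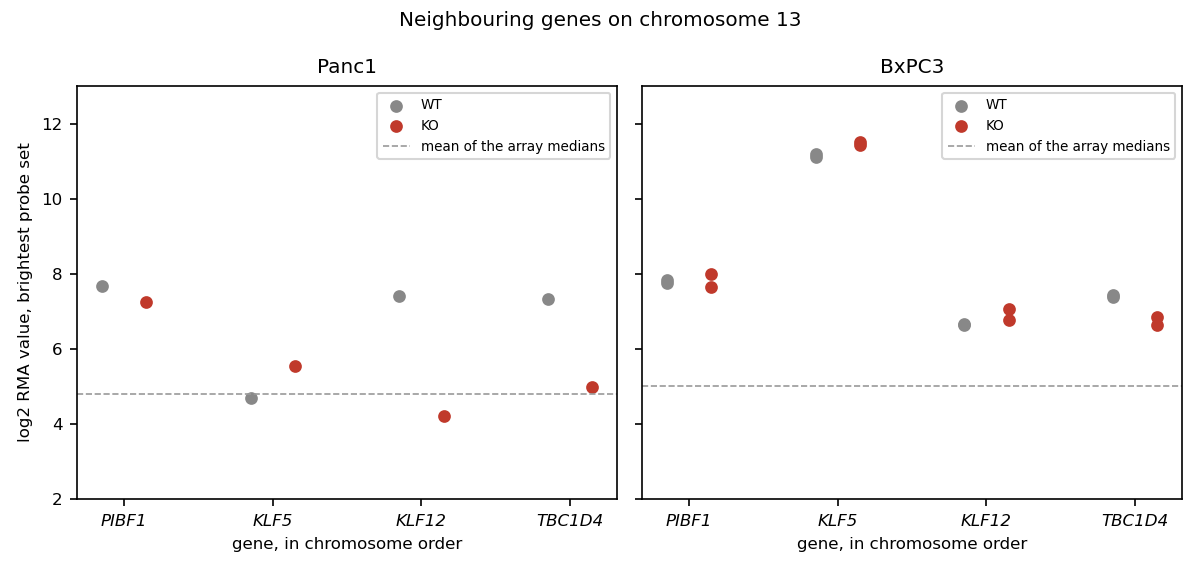
Log2 RMA values of 4 consecutive protein-coding genes of chromosome 13, each by its brightest probe set, with 1 point per array in Panc1 (left) and BxPC3 (right). The dashed line is the mean of the array medians of the line. In Panc1 KLF12 goes from 7.42 to 4.23 and TBC1D4 from 7.33 to 4.98 while KLF5 goes from 4.69 to 5.54.

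The genes around the factors were taken from 5 lists with 83 entries, of which 77 had a usable probe set and 69 were tested, each by its brightest probe set. None of the 10 tested relatives outside the 10 members (among them KLF11, KLF16, SP1 and SP3) was called in BxPC3 by limma or differed 2-fold in Panc1. Of all tested probe sets, 2.68% were called in BxPC3, and 2.97% were 2-fold lower and 0.524% higher in Panc1. The relatives' medians were 0.07 and 0.02. At an unadjusted p under 0.05 there was 1 of these, where 17% of all tested probe sets were. It was SP4 at 0.32 ± 0.07 (adjusted p = 0.109), a name chosen after its values were seen. The relatives' Panc1 differences lay between -0.40 and 0.42, and the spread of the members and of these relatives was not tested against each other.

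None of the tested cofactors and upstream genes differed 2-fold in Panc1, where 2.97% of all tested probe sets were lower and 0.524% higher. Of 12 corepressors and coactivators, such as CTBP1, SIN3A, HDAC1 and EP300, 0 were called in BxPC3 by limma, where 2.68% of all were. Of the 12, 1 had an unadjusted p under 0.05, where 17% of all tested probe sets did. Medians were 0.04 in BxPC3 and 0.16 in Panc1, where differences ran from -0.47 to 0.95. Of 21 upstream kinases, receptors, SMADs and ubiquitin ligases, such as MAPK7, NR3C1, SMAD3 and FBXW7, 0 were called, beside the same 2.68%. Their medians were -0.01 and -0.12. Of the 21 upstream genes, 5 had an unadjusted p under 0.05, beside the same 17% of all tested probe sets. The largest BxPC3 difference among the 21 was that of MEF2C, a factor upstream of KLF2 that was named after its values were seen. It read 5.30 and 5.48 on the WT and 3.89 and 4.61 on the KO arrays, a difference of -1.14 ± 0.24 (limma adjusted p = 0.0957, from 0.011 to 0.495 over 14 alternatives, 4 of which called it). The KO values were dim, and in Panc1 MEF2C was higher on the KO array, at 7.39 and 8.27 (0.88).

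Genes described as targets of the factors included CDKN1A, the gene in the series title, which is therefore no independent choice. The whole list was drawn up with earlier results of these data known, so nothing is read from its counts. Of 21 tested, 4 fell and 1 rose in BxPC3, where 2.06% and 0.623% of all tested probe sets did, and the median was -0.26 against 0.01 over all. In Panc1 6 were at least 2-fold lower and 0 higher, where 2.97% and 0.524% of all tested probe sets were. THBD, the anticoagulant receptor thrombomodulin that KLF2 and KLF4 induce in endothelium, read 6.49 on the Panc1 WT and 3.70 on the KO array (-2.80). In BxPC3 it fell from 10.89 and 10.95 to 10.40 and 10.22, a difference of -0.61 ± 0.09 (limma adjusted p = 0.0429). Its other probe sets fell as well, by 0.64 and 0.91 on the log2 scale in BxPC3, and differed by -1.60 and -1.05 in Panc1.

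TXNIP, the thioredoxin inhibitor, read 7.29 and 5.43 in Panc1 (-1.86) and fell in BxPC3 from 9.63 and 9.70 to 8.75 and 8.67, a difference of -0.96 ± 0.08 (limma adjusted p = 0.00963). Its other probe sets gave -0.64 and -0.56 in Panc1. CDKN1A, which KLF4 and KLF6 induce in other cells, fell in BxPC3, with a difference of -1.14 ± 0.07 (adjusted p = 0.00601), and differed by -1.03 in Panc1. LGALS3, galectin-3, fell in BxPC3, with a difference of -0.53 ± 0.07 (adjusted p = 0.0333), and differed by -0.14 in Panc1. Its other probe set was dim on every array, was not tested, and went the other way, by 0.16 in BxPC3 and 0.49 in Panc1. The gene that rose was KRT13, a keratin of stratified epithelium, from 10.57 and 10.56 to 11.54 and 11.32 in BxPC3 (0.87 ± 0.10, adjusted p = 0.0207). In Panc1 it was dim, at 3.16 and 3.11.

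Panc1 also had CCL5, the chemokine named above with KLF13, at 8.13 on the WT and 6.67 on the KO array (-1.46), and its other probe sets gave -1.64 and -1.20. ATF3, a stress-induced factor, read 7.77 and 6.01 (-1.76), but its other probe sets gave -0.19 and 0.36. PDGFA, a growth factor subunit named after its values were seen, read 6.55 and 5.25 (-1.31). None of the 3 was called in BxPC3, where CCL5 differed by -0.34 ± 0.11 (limma adjusted p = 0.235) ATF3 by -0.14 ± 0.10 (adjusted p = 0.555) and PDGFA by -0.32 ± 0.09 (adjusted p = 0.173). Fits with 1 BxPC3 array left out have 1 array in a group, so they cannot show whether the calls of the 5 target genes hold.

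Glucocorticoid-responsive genes were listed because KLF9 belongs with them. Of 5 tested, none was called in BxPC3 by limma, where 2.68% of all tested probe sets were. Of the 5, 2 had an unadjusted p under 0.05, where 17% of all tested probe sets did. In Panc1 these genes differed in both directions. TSC22D3, the glucocorticoid-induced leucine zipper, read 7.92 and 6.69 (-1.23), while SGK1, a kinase of salt transport, read 7.08 and 8.36 (1.28). Another probe set of TSC22D3, above the medians in BxPC3 alone, gave 0.12 in Panc1. In BxPC3 TSC22D3 differed by 0.07 ± 0.08 (adjusted p = 0.736) and SGK1 by -0.51 ± 0.08 (adjusted p = 0.053).

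**Figure D4:**
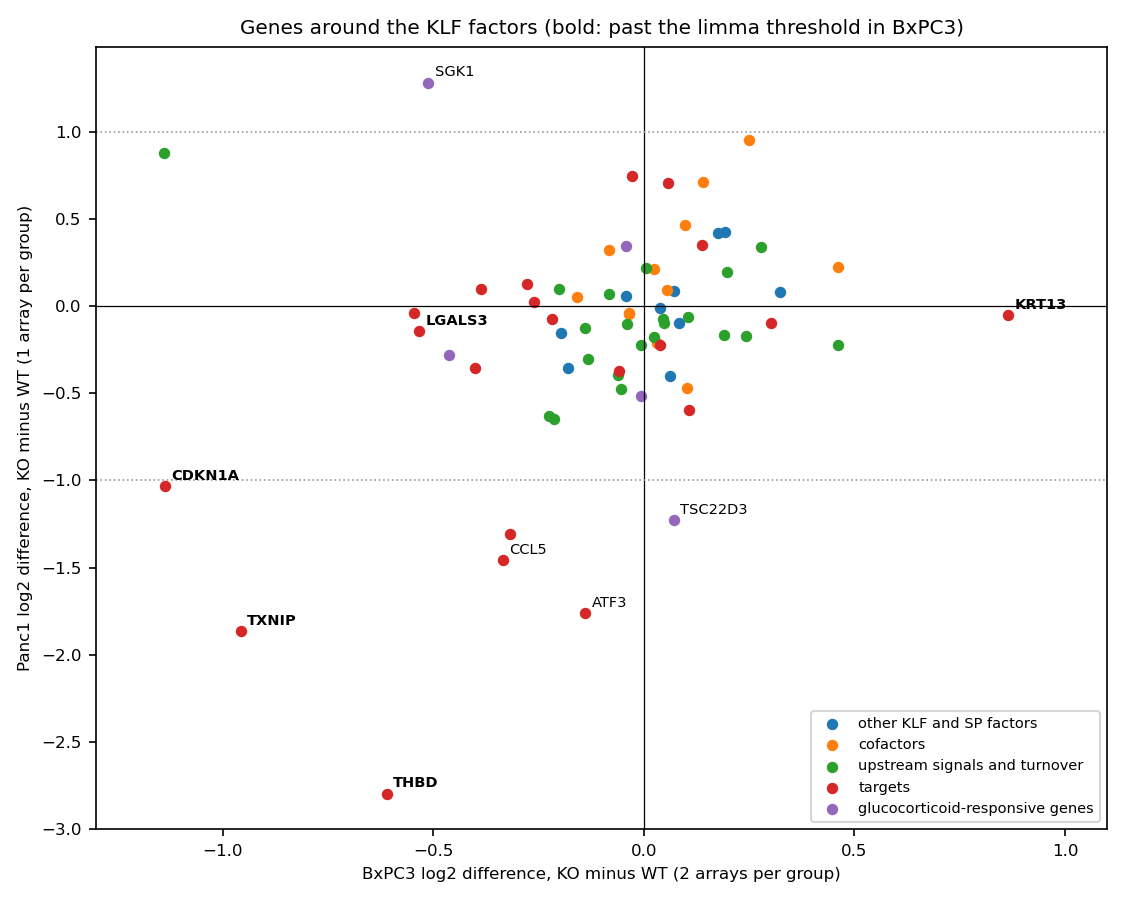
KO minus WT log2 differences of the 69 tested list genes in BxPC3 (horizontal) and Panc1 (vertical), 1 point per gene, coloured by list, with dotted lines at 2-fold in Panc1. Bold names passed the limma threshold in BxPC3. THBD, TXNIP and CDKN1A lie low on both axes, KRT13 is high in BxPC3 alone, and the other KLF and SP factors stay near the centre.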

How the data were processed

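Expression of 6 arrays was used as deposited. Per the submitters' processing notes, the authors made the log2 values with RMA in the affy package, version not given in the sources used here. Exactly equal values occurred between arrays of a line (629 to 2895 probe sets) and at 0 probe sets between lines, as separate RMA runs would leave, so levels were compared within a line only. The platform annotation gave 1 symbol to 41091 of 54613 probe sets.

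Probe sets above the array median on at least 1 of 6 arrays (32262) were fitted with limma 3.58.1 in R 4.3.3, with 1 mean for each of 4 groups, 2 residual and 3.24 prior degrees of freedom. Calls had a Benjamini-Hochberg adjusted p under 0.05. Panc1, with 1 array per group, has no test, and its differences have no replicate check. The number of arrays limits the precision. The fit was tested on simulated data.

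Members and lists were chosen with earlier results of these data known. Named were every member probe set, KDM6A, CDKN1A, list genes called in BxPC3 (up to 6 per list) or 2-fold different in Panc1 (up to 4), and genes next to members. Genes named only as examples of a list are given without values. Alternatives covered filter, scaling, unit of the fit, variance prior, replicate block and each BxPC3 array left out. Promoter windows come from RefSeq, GRCh38.p14.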

Additional observations from a re-analysis of the deposited data

Results flagged for a closer look

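Some differences had opposite signs in the lines, with both BxPC3 KO arrays on the same side of both WT arrays. Of all tested probe sets, 24.3% lay apart in this way with KO lower and 23.4% with KO higher. The difference between the lines was not tested, and Panc1 has 1 array per group. KLF12 227261_at was at 0.27 in BxPC3 and -3.19 in Panc1. KLF7 204334_at was at 0.0368 ± 0.07 and -1.18, so its BxPC3 difference was smaller than its error. KLF13 was at 0.11 ± 0.08 and -0.73 on 225390_s_at and at 0.0753 ± 0.07 and -0.47 on 219878_s_at. On 230094_at, dim in Panc1, it was at 0.28 ± 0.12 and -0.06. Outside the members, SGK1 was at -0.51 and 1.28, and MEF2C at -1.14 and 0.88. KRT13 was at 0.87 and -0.05, with both Panc1 values dim. Of the genes next to members, EPS15L1, beside KLF2, was at -0.33 and 0.29, and PITRM1, beside KLF6, at -0.12 and 0.21.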

How the results depend on the processing

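The Panc1 differences of KLF4 221841_s_at (-3.80 to -3.70), KLF12 227261_at (-3.27 to -3.16), KLF9 203542_s_at (-2.64 to -2.50) and KLF5 209211_at (1.63 to 1.75) kept their direction under each filter and scaling tried. Centring arrays moved the median Panc1 difference to -0.08. Counts of BxPC3 probe sets called lower and higher (663 and 201) became 301 and 56 with no filter and 1302 and 543 with a variance prior that follows expression, and the higher count became 325 with quantile and 328 with cyclic loess normalization. Replicate numbers share only a number (correlation of deviations -0.16), and the replicate block gave 355 and 87. The crossed replicate block, chosen after seeing the data, gave 412 and 94. Leaving out 1 BxPC3 array gave 0 to 58 lower and 0 to 5 higher. In Panc1 the 2-fold counts (959 lower, 169 higher) became 472 and 83 with the brightest probe set per gene and 268 and 55 with the mean of a gene's probe sets. Member calls in BxPC3 (0) became 1 (KLF6) with the brightest probe set per gene and 5 with the prior that follows expression. Members 2-fold lower in Panc1 (5) became 3, and higher (1) became 0, with the brightest probe set, and 1 was lower with the mean. For list and neighbouring genes, 5 were called lower and 1 higher. With no filter these became 2 and 0, and with the prior that follows expression 13 and 5. The lower count was 8 with centring, with the brightest probe set and with the mean, 3 with the replicate block and 2 with the crossed block, and the higher count was 2 with quantile and with cyclic loess normalization. The cause of these shifts was not tested, except that per-gene fits have fewer features. Calls of THBD and TBC1D4 ended with no filter and with both blocks, LGALS3 with these and with the mean, and KRT13 with no filter.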
